A study of Mus musculus with 16 samples.

Results

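The genes described here are the 5 histone acetyltransferases of the MYST family (Kat6a, Kat6b, Kat7, Kat5 and Kat8) and 5 subunits that KAT6A and KAT6B bind in common (Brpf1, Brd1, Brpf3, Ing5 and Meaf6). They were taken by symbol from the deposited count files, which hold 26411 genes, and all 10 were found. All 10 also passed the filter on low counts, which left 15679 genes for testing. The lowest count of any of the 10 genes in any embryo was 431.

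MYST enzymes transfer acetyl groups to lysines of histones and some other proteins, and each works within a complex whose subunits hold it together and bring it to chromatin. KAT6A and KAT6B occupy the same position in their complex, one at a time, beside a scaffold of the BRPF family (BRPF1, BRD1 or BRPF3), a reader of methylated histone H3 (ING5) and the small subunit MEAF6. KAT7 can use the same scaffolds and the same small subunits, whereas KAT5 and KAT8 work in largely separate complexes.

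Whole mouse embryos at embryonic day 9.5 (E9.5) were sequenced, 4 for each of 4 genotypes on a mixed FVB x BALB/c background. Kat6a+/+Kat6b+/+ embryos were the wild type controls. Kat6a-/-Kat6b+/+ embryos carried 2 copies of a Kat6a null allele that lacks exons 5 to 9. Kat6a+/+Tg(Kat6b) embryos carried a transgene made from a bacterial artificial chromosome with the entire Kat6b gene and its flanks, and Kat6a-/-Tg(Kat6b) embryos carried both changes. The transgene came from a single line, retained its own Kat6b regulatory sequence and left the endogenous alleles intact, so its transcripts and the endogenous ones are counted together. Each genotype had 2 female and 2 male embryos. Wild type and Kat6a-/-Kat6b+/+ embryos shared litters 801 and 803, wild type and Kat6a+/+Tg(Kat6b) embryos shared litters 2597 and 2598. Litters 483 and 498 gave the Kat6a-/-Tg(Kat6b) embryos and held no other genotype here. For the last group, litter and genotype therefore cannot be told apart.

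Total counts per embryo ran from 14407277 to 45665680. Long genes were taken as the 778 tested genes listed as longer than 8000 bases and above a cut on mean expression. In Kat6a+/+Tg(Kat6b) replicate 1 they were lower than in the other embryos of its genotype by a median of -0.27 on the log2 scale. The same median was -0.10 to 0.12 for the other 15 embryos. Marker lists of neural tube, somite, heart, primitive blood and endothelium were present in every embryo, and none of the 4 trophoblast markers exceeded 3 counts in any embryo. The 5 markers of yolk sac visceral endoderm summed to 10.8 to 50.5 CPM (the usual unit for counts scaled to library size, here after TMM normalisation) for the wild type, 4.81 to 11.6 for Kat6a-/-Kat6b+/+, 1.94 to 43.6 for Kat6a+/+Tg(Kat6b) and 32.3 to 45.6 for Kat6a-/-Tg(Kat6b) embryos. The 3 markers of maternal decidua summed to 9.07 to 15.9 CPM over all genotypes, and 1 of the 3 passed the filter. In whole embryos, fewer cells of a type and less RNA per cell cannot be told apart.

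Kat6a (Entrez 244349, GRCm39 chr8:23349545-23433275, plus strand) is the targeted gene. In the canonical transcript of the GENCODE annotation, which has 18 exons, exons 5 to 9 hold 770 coding bases between positions 23397662 and 23404403. That is 8.45% of the 9116 bases listed as the length of Kat6a and 12.8% of its 6009 coding bases. The count files give 1 number per gene and none per exon, so they cannot show the deletion itself. The first and last of the exons that the null allele lacks, and the coding bases that flank the gap, are printed here from the GRCm39 genome, 5′ to 3′ on the coding strand, because they are the sequence that separates the alleles. Exons 5 and 9 occupy chr8:23397662-23397777 and chr8:23404285-23404403, the last bases of exon 4 chr8:23393203-23393232 and the first bases of exon 10 chr8:23409341-23409370.
Kat6a exon 4, last 30 bases: tcgtctcctgcgcggactgcggcaatagcg
Kat6a exon 5, 116 bases: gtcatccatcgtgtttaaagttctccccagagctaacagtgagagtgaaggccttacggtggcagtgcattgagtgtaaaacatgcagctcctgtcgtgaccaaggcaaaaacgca
Kat6a exon 9, 119 bases: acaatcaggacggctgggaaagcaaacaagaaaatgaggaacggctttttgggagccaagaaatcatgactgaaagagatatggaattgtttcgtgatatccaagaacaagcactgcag
Kat6a exon 10, first 30 bases: aaggtcggagtaactgggccccctgatcca
The 770 bases leave a remainder of 2 when divided by 3.

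No reduction of Kat6a mRNA was detected in Kat6a-/-Kat6b+/+ embryos at the gene level. The 4 wild type embryos had 211, 176, 211 and 199 CPM, and the 4 Kat6a-/-Kat6b+/+ embryos had 190, 189, 213 and 218 CPM. The groups overlapped almost entirely. The log2 fold change was 0.03 (SE 0.08, 95% confidence interval -0.14 to 0.20, FDR = 0.89), where the FDR is the Benjamini-Hochberg adjusted p of edgeR's quasi-likelihood test over all tested genes. Removing the bases of exons 5 to 9 alone, with no other change, would shift a count spread evenly over the listed length by -0.13. That value lies inside the interval, close to its lower limit. The estimate was 0.015 (SE 0.036) with offsets for each library's trend with gene length and 0.035 (SE 0.037) without Kat6a+/+Tg(Kat6b) replicate 1. In the other fits the SE was larger, between 0.069 and 0.16. With no surrogate variable the estimate was 0.022 (SE 0.096), and without wild type replicate 4 it was -0.021 (SE 0.075). A shift of -0.13 was not tested against these values. The groups overlapped, so the gene-level count does not check the Kat6a labels.

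Transgenic embryos had 138, 189, 192 and 196 Kat6a CPM when KAT6A was intact and 195, 187, 201 and 184 when it was not. Kat6a+/+Tg(Kat6b) replicate 1 was the lowest of all 16 embryos, and the other 15 lay between 176 and 218 CPM. The difference of Kat6a+/+Tg(Kat6b) from the wild type was -0.19 on the log2 scale (SE 0.08, FDR = 0.361), and it was -0.08 without replicate 1. The difference of Kat6a-/-Tg(Kat6b) from Kat6a+/+Tg(Kat6b) embryos was 0.22 (FDR = 0.194) with that library and 0.08 without it.

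Kat6b (Entrez 54169, GRCm39 chr14:21531502-21722546, plus strand), the paralogue of Kat6a, rose about 4-fold with the transgene. Wild type embryos had 47.1, 42.6, 46.9 and 48.2 CPM and Kat6a-/-Kat6b+/+ embryos had 48.6, 46.5, 51.0 and 50.4 CPM. Kat6a+/+Tg(Kat6b) embryos had 155, 198, 188 and 227 CPM and Kat6a-/-Tg(Kat6b) embryos had 192, 203, 199 and 195 CPM. All 8 transgenic embryos lay above all 8 others. The log2 fold change was 2.02 (SE 0.07, 4.06-fold, FDR = 1.01e-09) in Kat6a+/+Tg(Kat6b) versus Kat6a+/+Kat6b+/+ and 2.05 (SE 0.07, 4.15-fold, FDR = 8.68e-10) in Kat6a-/-Tg(Kat6b) versus Kat6a-/-Kat6b+/+. These 2 effects differed by 0.03 (95% confidence interval -0.20 to 0.25, FDR = 0.927), and so no difference in the yield of the transgene with and without KAT6A was found within that interval.

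Within litters the rise was of like size, at 1.93 in litter 2597 (3 embryos against 1 wild type) and 2.24 in litter 2598 (1 against 1). The spread among embryos was wider in Kat6a+/+Tg(Kat6b), where the coefficient of variation was 15.4%, than in Kat6a-/-Tg(Kat6b), where it was 2.49%. Kat6a+/+Tg(Kat6b) replicate 1, the library with low counts of long genes, was again the lowest of its group. Without it the rise over the wild type was 2.12.

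Loss of KAT6A alone was not accompanied by a detectable change in Kat6b. Kat6a-/-Kat6b+/+ versus Kat6a+/+Kat6b+/+ gave a log2 fold change of 0.09 (SE 0.08, 95% confidence interval -0.07 to 0.25, FDR = 0.611), or a fold between 0.953 and 1.19. By litter the difference was 0.01 in litter 801 and 0.25 in litter 803, with 2 embryos against 1 wild type embryo in each. Averaged over both Kat6b doses the difference was 0.11 (FDR = 0.292).

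Levels of different genes were compared as RPKM, the CPM divided by the listed gene length in kilobases. The listed lengths differ unevenly from the exon bases annotated in GENCODE. These were 7826 and 20128 bases for Kat6b, 5137 and 10234 for Brd1, 9116 and 9466 for Kat6a, and 6125 and 5536 for Kat7. Orders, shares and ratios between genes therefore hold for the listed lengths only, and other lengths were not tried. In wild type embryos Brd1 was highest at 25.7 ± 0.35 RPKM (SD, n = 4), followed by Kat7 at 22.4 ± 0.50 and Kat6a at 21.9 ± 1.81. Brd1 lay above Kat7 in all 4 embryos with no overlap of values, while Kat7 and Kat6a overlapped. Kat5 (17.6 ± 0.79), below Kat6a without overlap, overlapped with Kat8 (17.2 ± 0.55), and Kat8 overlapped with Brpf1 (16.8 ± 1.047). Brpf3 (14.0 ± 0.47) lay below Brpf1 in all 4 embryos without overlap. It overlapped with Ing5 (12.9 ± 1.27), as Ing5 did with Meaf6 (11.2 ± 0.86). Kat6b was lowest at 5.91 ± 0.31 RPKM, below Meaf6 in all 4 embryos. By the listed lengths Kat6b thus ranked 10 of 10 in wild type and in Kat6a-/-Kat6b+/+ embryos (6.28 ± 0.26 RPKM). In the transgenic genotypes it ranked 2, at 24.5 ± 3.79 RPKM with KAT6A intact and 25.2 ± 0.63 RPKM without KAT6A. By its mean it lay below Brd1 only. Its values overlapped with those of Brd1 and Kat7 in Kat6a+/+Tg(Kat6b) embryos and with neither in Kat6a-/-Tg(Kat6b) embryos.

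**Figure D1:**
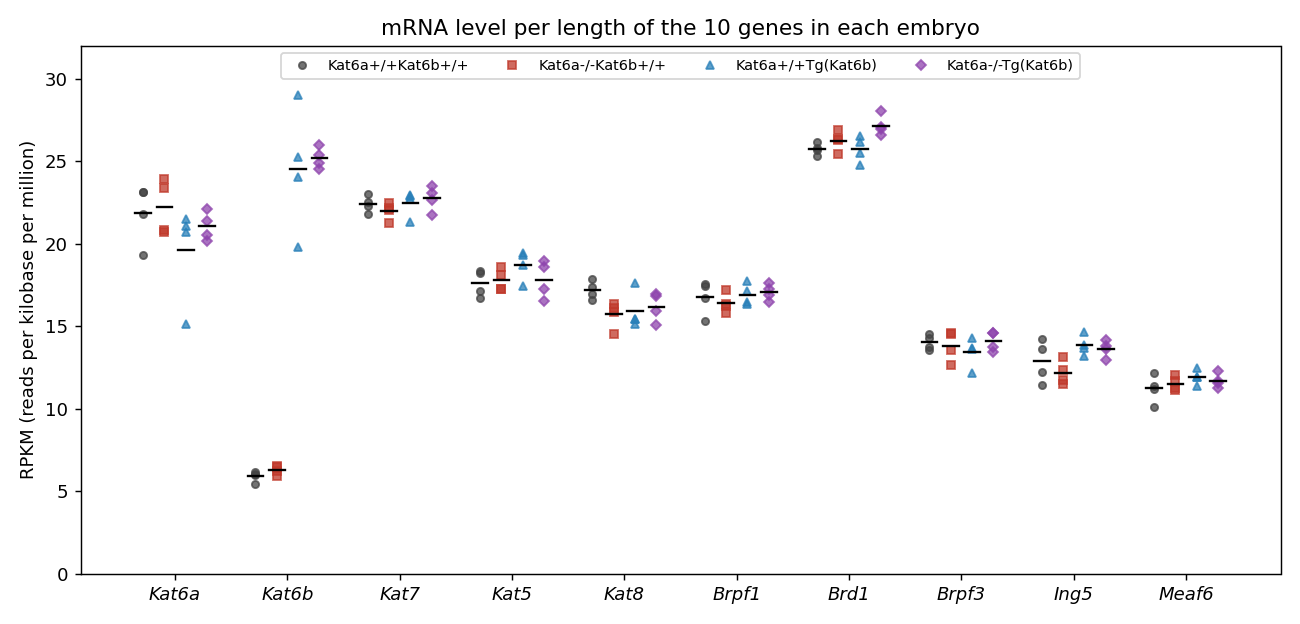
Level of each of the 10 genes in RPKM (linear axis from 0) in each of 16 embryos, by genotype, with a bar at the mean of 4 embryos. RPKM uses the listed gene lengths. Kat6b moves from 5.91 RPKM in the wild type, the lowest mean, to 24.5 and 25.2 RPKM in the transgenic genotypes, and the single low Kat6a value among Kat6a+/+Tg(Kat6b) embryos is replicate 1.

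The balance between both catalytic subunits was described in each embryo from these RPKM values, and so rests on the listed lengths. It is a description without a test, and the Kat6a term includes RNA of the null allele in Kat6a-/- embryos. Kat6b made up 20.6, 22.0, 20.6 and 22.0% of Kat6a plus Kat6b in the 4 wild type embryos. In Kat6a-/-Kat6b+/+ embryos its share was 21.2 to 23.0%. In Kat6a+/+Tg(Kat6b) embryos the share was 56.7, 55.0, 53.3 and 57.4%, and in Kat6a-/-Tg(Kat6b) embryos 53.4 to 55.8%. The ratio of Kat6a to Kat6b accordingly averaged 3.70 ± 0.18 (SD, n = 4) for the wild type and 0.80 ± 0.06 when the transgene was added. The share in Kat6a+/+Tg(Kat6b) replicate 1 lay among those of its group, although both genes were at their lowest in that library.

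The scaffold sums lay close together in all 4 genotypes. Brpf1, Brd1 and Brpf3 summed to 56.5 ± 1.28 RPKM for wild type, 56.5 ± 1.82 for Kat6a-/-Kat6b+/+, 56.1 ± 2.00 for Kat6a+/+Tg(Kat6b) and 58.3 ± 1.38 for Kat6a-/-Tg(Kat6b), each as mean ± SD of 4 embryos. Kat6a plus Kat6b summed to 27.8 ± 2.08, 28.5 ± 1.90, 44.2 ± 6.57 and 46.3 ± 1.01 RPKM in the same order. The ratio of catalytic to scaffold mRNA was therefore 0.49 ± 0.04 and 0.50 ± 0.02 without the transgene and 0.79 ± 0.10 and 0.79 ± 0.01 with it. In Kat6a-/- embryos the Kat6a term again includes RNA of the null allele, and all these ratios hold for the listed lengths. Kat6b alone over the scaffold sum averaged 0.105, 0.111, 0.437 and 0.432 in the same order of genotypes. Within the scaffold sum Brd1 held 45.5% in the wild type and 45.9 to 46.6% in the other genotypes, Brpf1 29.03 to 30.2% and Brpf3 24.0 to 24.8%, as means of 4 embryos. KAT6 genes made up 32.7% of the summed RPKM of the 5 MYST enzymes for wild type, 33.9% for Kat6a-/-Kat6b+/+, 43.4% for Kat6a+/+Tg(Kat6b) and 44.9% for Kat6a-/-Tg(Kat6b) embryos.

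**Figure D2:**
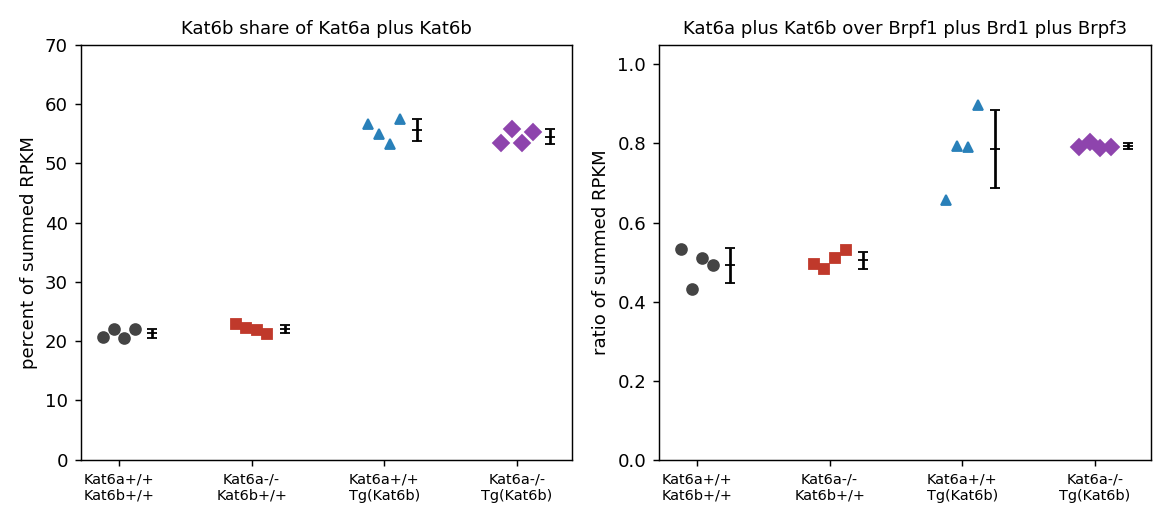
Left, Kat6b as a percent of the summed RPKM of Kat6a and Kat6b, and right, the ratio of Kat6a plus Kat6b to the 3 scaffold genes, in each embryo, with the mean ± SD of 4 embryos beside the points. Both quantities are higher in all 8 transgenic embryos than in all 8 others, and the ratio of 0.66 in Kat6a+/+Tg(Kat6b) replicate 1 is the lowest of the transgenic embryos. RPKM uses the listed gene lengths, and Kat6a includes RNA of the null allele in Kat6a-/- embryos.

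To ask whether the other MYST genes or the shared subunits responded to loss of KAT6A, Kat6a-/-Kat6b+/+ and Kat6a+/+Kat6b+/+ embryos were compared. None of the 10 genes passed an FDR of 0.05 in edgeR, while 1.88% of all tested genes were called in this comparison. None of the 10 had an unadjusted p below 0.05 in edgeR, against 2387 of all 15679 tested genes. DESeq2 and limma-voom called none of the 10 either. Among the 8 genes other than Kat6a and Kat6b, 3 had a positive and 5 a negative log2 fold change, between -0.13 and 0.04, with a median of -0.02 against 0.003 for all tested genes. The 95% confidence intervals of the 8 genes together spanned folds from 0.837 (the lower limit of Kat8) to 1.11 (the upper limit of Meaf6). Averaged over both Kat6b doses, 8 embryos against 8, loss of KAT6A called none of the 10 genes in edgeR, DESeq2 or limma-voom against 4.82% of all genes in edgeR. Brd1 alone of the 10 had an unadjusted edgeR p below 0.05, against 3115 of all 15679 tested genes. The intervals of the 8 genes spanned folds from 0.898 to 1.08.

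The comparison of Kat6a+/+Tg(Kat6b) with Kat6a+/+Kat6b+/+ embryos asked the same of excess Kat6b. Only Kat6b itself was called among the 10 genes, against 0.14% of all tested genes. Of the 10, 3 had an unadjusted edgeR p below 0.05 (Kat6b, Kat6a and Ing5), against 1805 of all 15679 tested genes. The intervals of the 8 other genes spanned folds from 0.846 (Kat8) to 1.16 (Kat5). In Kat6a-/-Tg(Kat6b) versus Kat6a+/+Kat6b+/+ embryos, where both changes are present, Kat6b was again the only one of the 10 genes called (2.14 on the log2 scale, SE 0.08, FDR = 7.78e-10), against 0.67% of all genes. With KAT6A absent in both groups, in Kat6a-/-Tg(Kat6b) versus Kat6a-/-Kat6b+/+ embryos, Kat6b and Ing5 were called, against 7.14% of all genes. The comparison of Kat6a-/-Tg(Kat6b) with Kat6a+/+Tg(Kat6b) embryos called none of the 10 genes in edgeR, DESeq2 or limma-voom, against 3.41% of all genes in edgeR. Of the 10, 3 (Brd1, Kat6a and Brpf3) had an unadjusted edgeR p below 0.05, against 2959 of all 15679 tested genes. Averaged over both Kat6a genotypes, excess Kat6b called Kat6b and Ing5, against 5.27% of all genes. The effect of the transgene was not found to depend on KAT6A for any of the 10 genes. The edgeR interaction test called none of the 10, against 0.153% of all genes, and DESeq2 and limma-voom called none of the 10 either. None of the 10 had an unadjusted p below 0.05 in the edgeR interaction test, against 2284 of all 15679 tested genes. Comparisons with the wild type share the same 4 control embryos.

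**Figure D3:**
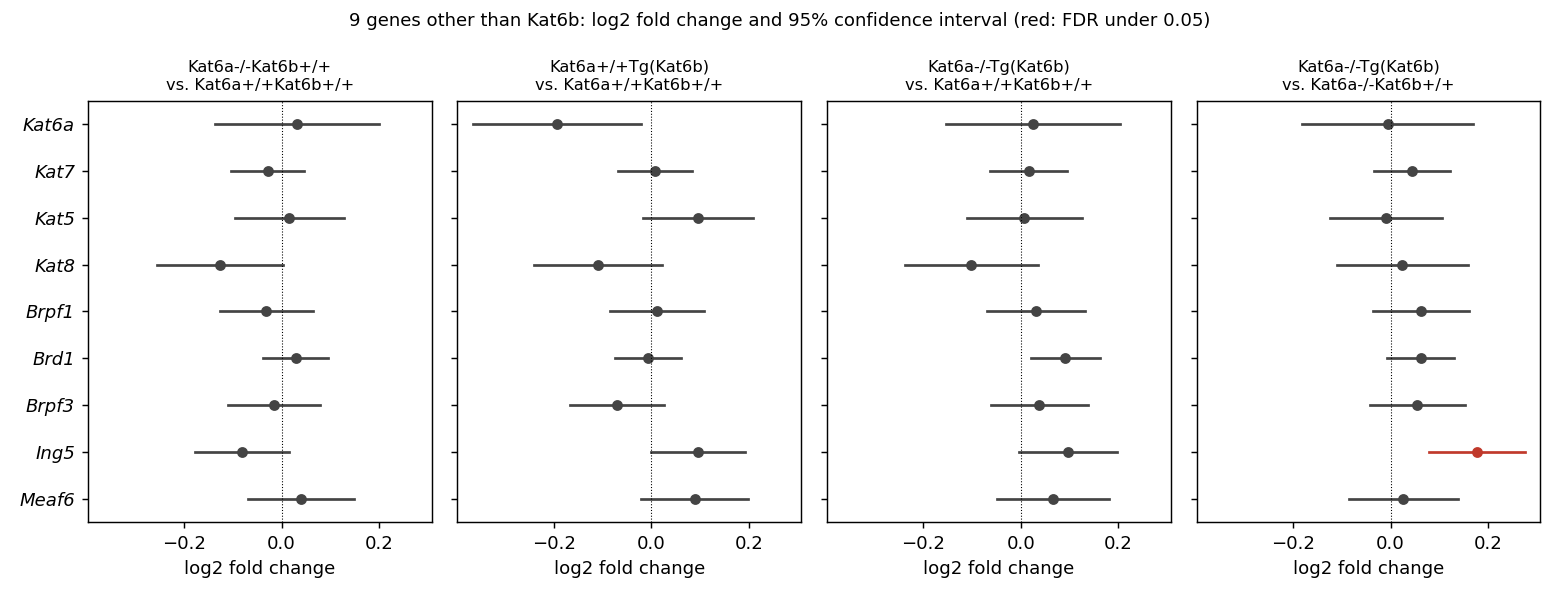
Log2 fold change (points) with its 95% confidence interval (lines) from edgeR for the 9 genes other than Kat6b in 4 comparisons of 4 against 4 embryos, with genes at an FDR below 0.05 in red. Ing5 in Kat6a-/-Tg(Kat6b) versus Kat6a-/-Kat6b+/+ embryos (0.18) is the one called, and intervals of Kat6a are among the widest.

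Kat7 (GRCm39 chr11:95165085-95201072, minus strand) encodes HBO1, the MYST enzyme that shares scaffolds with KAT6A and KAT6B. It varied little, from 130 to 144 CPM over all 16 embryos. Group means were 137 ± 3.06 CPM for wild type, 135 ± 3.23 for Kat6a-/-Kat6b+/+, 138 ± 4.75 for Kat6a+/+Tg(Kat6b) and 139 ± 4.68 for Kat6a-/-Tg(Kat6b), each with its SD over 4 embryos. Its log2 fold changes were -0.03 with loss of KAT6A (95% confidence interval -0.10 to 0.05, FDR = 0.761) and 0.03 averaged over excess Kat6b (-0.03 to 0.08, FDR = 0.606).

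Kat5 (GRCm39 chr19:5653038-5660271, minus strand) encodes TIP60, which works in a complex that also remodels nucleosomes. Its means were 49.6 ± 2.22 CPM for wild type, 50.1 ± 1.87 for Kat6a-/-Kat6b+/+, 52.8 ± 2.63 for Kat6a+/+Tg(Kat6b) and 50.2 ± 3.21 for Kat6a-/-Tg(Kat6b), again with the SD of 4 embryos. All groups overlapped. The log2 fold change was 0.02 with loss of KAT6A (FDR = 0.923) and 0.10 in Kat6a+/+Tg(Kat6b) versus Kat6a+/+Kat6b+/+ embryos (SE 0.05, FDR = 0.534). Exons of other genes on the opposite strand, among them Rnaseh2c, cover 24.3% of the annotated Kat5 exon bases, and the library kit does not mark strand, so reads from that overlap cannot be assigned between them. The share was 14.6% for Brpf1 and at most 8.83% for each of the other 8 genes.

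Kat8 (GRCm39 chr7:127511661-127525009, plus strand), also known as MOF, acetylates histone H4 within the MSL and NSL complexes. Wild type embryos had 30.3, 31.9, 31.0 and 29.6 CPM. Kat6a-/-Kat6b+/+ embryos had 25.9, 28.8, 28.4 and 29.2 CPM. All 4 lay below the 4 wild type values. Kat8 was 1 of the 10 genes without overlap between these genotypes, as were 7.97% of all tested genes in either direction. The log2 fold change was -0.13 (SE 0.06, 95% confidence interval -0.26 to 0.004, unadjusted p = 0.0564, FDR = 0.344), and it was -0.15 within each of litters 801 and 803. Each of these litters set 2 Kat6a-/-Kat6b+/+ embryos against 1 wild type embryo. Kat6a+/+Tg(Kat6b) embryos had 27.6, 31.5, 27.0 and 27.6 CPM and Kat6a-/-Tg(Kat6b) embryos 26.9, 30.0, 30.3 and 28.4 CPM. Their log2 differences from the same wild type embryos were -0.11 (FDR = 0.545) and -0.10 (FDR = 0.557). None of these Kat8 differences passed the test.

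Of the scaffolds, BRPF1 is the partner most closely tied to the KAT6 enzymes. Brpf1 (GRCm39 chr6:113283799-113301824, plus strand) had 75.05, 86.2, 81.9 and 85.6 CPM in wild type and 77.5, 79.4, 84.2 and 80.2 CPM in Kat6a-/-Kat6b+/+ embryos. The groups overlapped, with a log2 fold change of -0.03 (95% confidence interval -0.13 to 0.06, FDR = 0.795). Averaged over excess Kat6b it was 0.04 (-0.03 to 0.10, FDR = 0.553), so a change of Brpf1 as large as that of Kat6b lay outside the interval.

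Brd1 (GRCm39 chr15:88571232-88618518, minus strand), which is also a scaffold of KAT7, was the least variable of the 10 genes in the wild type, with a coefficient of variation of 1.36%. Wild type embryos had 133, 130, 134 and 132 CPM, Kat6a-/-Kat6b+/+ embryos 135, 131, 138 and 135 CPM, Kat6a+/+Tg(Kat6b) embryos 127, 136, 131 and 134 CPM and Kat6a-/-Tg(Kat6b) embryos 139, 139, 144 and 137 CPM. The 4 embryos with both changes lay above the 4 wild type and above the 4 Kat6a+/+Tg(Kat6b) embryos, where 7.10% and 10.5% of all tested genes did not overlap. The log2 differences were 0.09 (SE 0.03, unadjusted p = 0.0136, FDR = 0.245) and 0.10 (SE 0.04, unadjusted p = 0.0115, FDR = 0.131). The average over loss of KAT6A was 0.06 (95% confidence interval 0.01 to 0.11, FDR = 0.133). No Brd1 difference passed the test across all genes, and the embryos with both changes came from litters of their own.

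Brpf3 (GRCm39 chr17:29004247-29058923, plus strand), the third scaffold gene, ranged from 72.8 to 87.3 CPM. Its log2 fold change was -0.02 with loss of KAT6A (FDR = 0.903) and -0.07 in Kat6a+/+Tg(Kat6b) versus Kat6a+/+Kat6b+/+ embryos (SE 0.05, FDR = 0.618). The lowest Brpf3 value was that of Kat6a+/+Tg(Kat6b) replicate 1, and without this library the second difference was -0.01. In Kat6a-/-Tg(Kat6b) versus Kat6a+/+Tg(Kat6b) embryos the difference was 0.11 (unadjusted p = 0.0419, FDR = 0.244) with the library and 0.04 without it.

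Ing5 (Entrez 66262, GRCm39 chr1:93731626-93749834, plus strand), which encodes the subunit that reads histone H3 methylated at lysine 4, was the only gene besides Kat6b to pass the test. In wild type embryos it was at 52.1 and 55.4 CPM in litters 801 and 803 and at 64.6 and 61.9 CPM in litters 2597 and 2598. Kat6a-/-Kat6b+/+ embryos had 59.5, 55.9, 52.3 and 53.2 CPM. Kat6a+/+Tg(Kat6b) embryos had 59.9, 66.5, 63.0 and 62.2 CPM, and Kat6a-/-Tg(Kat6b) embryos had 58.8, 64.3, 61.8 and 62.7 CPM. The highest Kat6a-/-Kat6b+/+ embryo lay within the range of the Kat6a-/-Tg(Kat6b) embryos, and the other 3 lay below it.

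Ing5 rose 1.13-fold in Kat6a-/-Tg(Kat6b) versus Kat6a-/-Kat6b+/+ embryos (log2 fold change 0.18, SE 0.05, 95% confidence interval 0.08 to 0.28, FDR = 0.0266) and 1.10-fold on average over excess Kat6b (0.14, SE 0.03, interval 0.07 to 0.20, FDR = 0.0188). It differed by 0.10 (SE 0.05, FDR = 0.434) in Kat6a+/+Tg(Kat6b) versus Kat6a+/+Kat6b+/+ embryos. The interaction was 0.08 (SE 0.07, FDR = 0.597), so the transgene effects with and without KAT6A were not shown to differ. In Kat6a-/-Kat6b+/+ versus Kat6a+/+Kat6b+/+ embryos the difference was -0.08 (FDR = 0.425).

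Litter moved with the Ing5 result. Within the 2 litters that held wild type and Kat6a+/+Tg(Kat6b) embryos the log2 difference was -0.03 in litter 2597 and 0.01 in litter 2598. These set 3 embryos and 1 embryo, in that order, against 1 wild type embryo each. In litter 2597 the wild type embryo was female (64.6 CPM), and the Kat6a+/+Tg(Kat6b) embryos were female (66.5 CPM) and male (59.9 and 63.0 CPM). In litter 2598 both were female. A fit of only the 12 embryos from shared litters (801, 803, 2597 and 2598), with a term for each litter, gave -0.02 (SE 0.07, FDR = 0.999), and the Kat6a-/-Kat6b+/+ difference was 0.04 (FDR = 0.934). This fit had no term for sex, and in litter 801 the wild type embryo was male and the Kat6a-/-Kat6b+/+ embryos female. The 2 wild type embryos of litters 2597 and 2598 exceeded the 2 of litters 801 and 803 by 0.24 without any difference in genotype, but these pairs were also female and male. Kat6a-/-Kat6b+/+ and Kat6a-/-Tg(Kat6b) embryos shared no litter, so that call has no within-litter value.

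Sex also moved with Ing5. Female embryos averaged 62.2 and male embryos 57.1 CPM, and the lower female exceeded the higher male in every genotype except Kat6a+/+Tg(Kat6b). Kat6a-/-Kat6b+/+ females were from litter 801 and males from litter 803. Wild type females were from litters 2597 and 2598 and males from litters 801 and 803. Sex and litter cannot be told apart within either of these genotypes. Every genotype had equal numbers of both sexes. Tg(Kat6b) genotypes exceeded Kat6b+/+ genotypes by 0.08 among females and by 0.19 among males. With sex in place of surrogate variables the Ing5 difference in Kat6a-/-Tg(Kat6b) versus Kat6a-/-Kat6b+/+ embryos was 0.16 (FDR = 0.0525) and the average over excess Kat6b was 0.14 (FDR = 0.0340). The summed visceral endoderm markers, at 4.81 to 11.6 CPM against 32.3 to 45.6 CPM, separated the same 2 genotypes, and their part in the Ing5 result was not tested. The call in Kat6a-/-Tg(Kat6b) versus Kat6a-/-Kat6b+/+ embryos was lost without Kat6a-/-Kat6b+/+ replicate 2 (FDR = 0.0787) or 3 (FDR = 0.0527) and without Kat6a-/-Tg(Kat6b) replicate 2 (FDR = 0.0648) or 3 (FDR = 0.0924), and over all 16 embryos left out in turn the log2 fold change lay between 0.16 and 0.20.

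**Figure D4:**
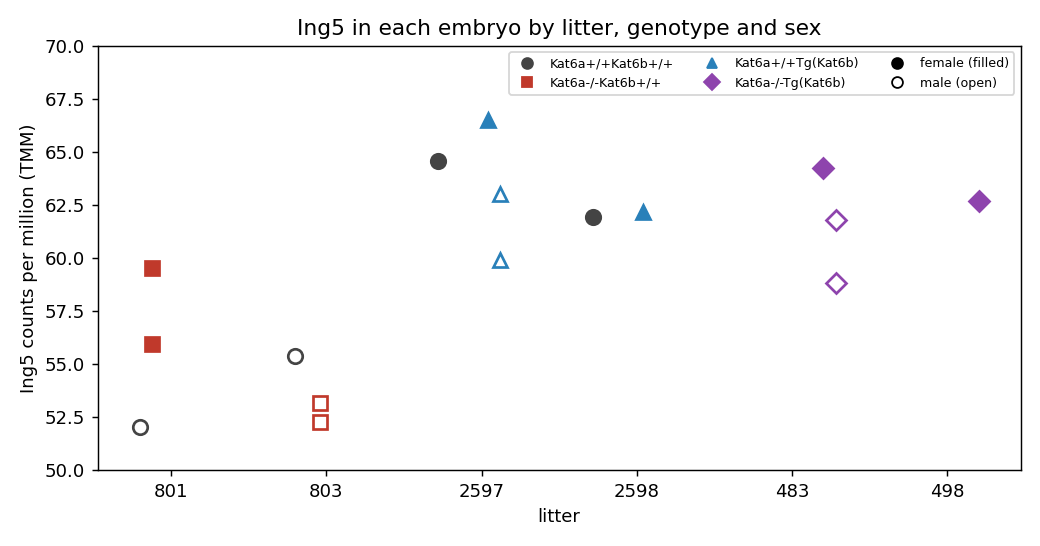
Ing5 in CPM (linear axis that starts at 50) in each of 16 embryos by litter, with genotype as colour and shape and sex as filled (female) or open (male) points. Wild type and Kat6a+/+Tg(Kat6b) embryos of litters 2597 and 2598 overlap, and the 6 embryos of litters 801 and 803 lie between 52.1 and 59.5.

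Meaf6 (GRCm39 chr4:124978889-125010762, plus strand), the small subunit common to KAT6, KAT7 and KAT5 complexes, had 46.8, 56.6, 52.1 and 52.9 CPM in wild type embryos. It had 51.6 to 55.8 CPM in Kat6a-/-Kat6b+/+, 52.9 to 57.8 with the transgene alone and 52.2 to 57.1 in Kat6a-/-Tg(Kat6b) embryos. Its log2 fold change was 0.04 with loss of KAT6A (95% confidence interval -0.07 to 0.15, FDR = 0.768) and 0.06 averaged over excess Kat6b (-0.02 to 0.13, FDR = 0.386).

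Deviations of each embryo from its genotype mean were then compared between genes, as a description over 16 embryos. These embryos differ in library depth and in the counts of long genes. Among the 10 genes, Kat6a and Kat6b varied most alike (Pearson r = 0.84), followed by Kat6a and Brd1 (0.77), Kat6b and Brd1 (0.70) and Kat6a and Brpf3 (0.67). Kat6b and Kat7 were the most opposed (-0.58). Hmbox1 (0.97) and Apaf1 (0.96) were among the tested genes most like Kat6a, and Usp32 (0.95), Gabpb2 (0.90) and Cspg4b (0.89) were most like Kat6b. These 5 genes are listed at 6557 to 8687 bases, and Kat6a and Kat6b at 9116 and 7826 bases. The part of the gene length shift of Kat6a+/+Tg(Kat6b) replicate 1 in these values was not tested.

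Beyond the 10 genes, 85 others of the acetylation machinery were examined in 6 lists, which also hold some of the 10. The HBO1 (KAT7) list of 10 genes adds JADE scaffolds and Ing4. The TIP60 (KAT5) list has 18 genes, the MSL and NSL (KAT8) list 13, other acetyltransferases 14, histone deacetylases and sirtuins 18, and readers of acetylated histones 21. None of the 85 was called by edgeR in Kat6a-/-Kat6b+/+, Kat6a+/+Tg(Kat6b) or Kat6a-/-Tg(Kat6b) embryos relative to Kat6a+/+Kat6b+/+ embryos, where 10, 17 and 12 had an unadjusted p below 0.05, as had 2387, 1805 and 1987 of all 15679 tested genes. Of the HBO1 list only Ing5 was called in any comparison. The medians of the HBO1 list were 0.01 with loss of KAT6A and 0.03 with excess Kat6b, each averaged over the other locus, against -0.003 and -0.004 for all tested genes.

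In Kat6a-/-Tg(Kat6b) versus Kat6a-/-Kat6b+/+ embryos 5 of the 85 rose and 1 fell (7.06%, near the 7.14% of all genes). Clock, the circadian transcription factor, rose 1.22-fold (log2 fold change 0.28, SE 0.07, FDR = 0.0198). Ogt, the glycosyltransferase found with the NSL complex, rose 1.20-fold (0.27, SE 0.05, FDR = 0.00746). The deacetylase gene Hdac4 (0.19), the NSL subunit gene Kansl1 (0.13) and the bromodomain gene Brd3 (0.13) rose as well. Morf4l1, which encodes a chromodomain subunit of the TIP60 complex, fell by 0.24 (SE 0.06, FDR = 0.0278).

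In Kat6a-/-Tg(Kat6b) versus Kat6a+/+Tg(Kat6b) embryos 7 of the 85 rose and none fell (8.24% against 3.41% of all genes), namely Hdac4, Cecr2, Taf1, Baz1b, Baz2a, Msl1 and Ncoa3, by 0.12 to 0.32. Without Kat6a+/+Tg(Kat6b) replicate 1 only Hdac4 (0.27, FDR = 0.0253) of the 85 was called, and with offsets for gene length none of the 7 was. On average over loss of KAT6A, Hdac4, Hdac9, Taf1, Epc1 and Msl1 rose (5.88%, against 4.82% of all genes). Hdac4 and Taf1 were also called without that library, and Epc1 and Taf1 with offsets for gene length, where Hdac4 was at 0.09 (FDR = 0.166) and Hdac9 at 0.08 (FDR = 0.467). On average over excess Kat6b, the bromodomain genes Brd7 (0.13, FDR = 0.0367) and Baz1b (-0.09, FDR = 0.0301) were called in opposite directions (2.35%, against 5.27% of all genes), and both were called under either alternative too.

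**Figure D5:**
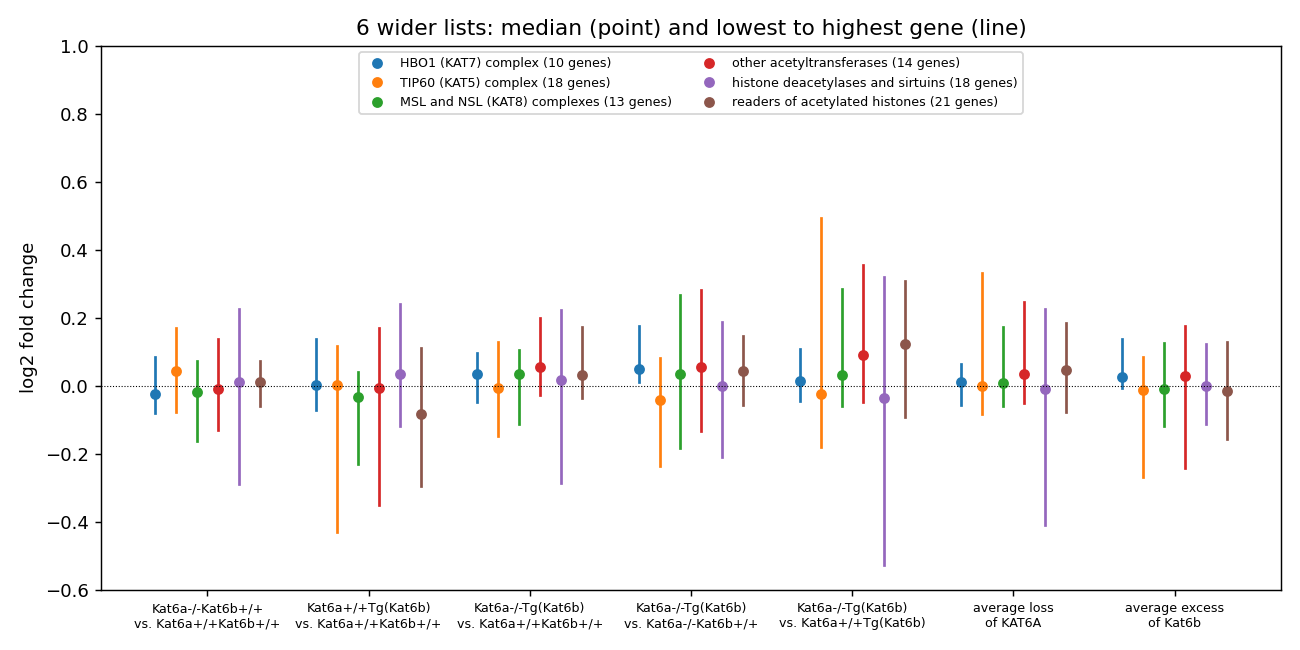
Median log2 fold change (points) and the lowest to highest gene (lines) of 6 lists of acetylation genes in 7 comparisons. Medians lie between -0.08 and 0.05 in the comparisons with wild type embryos. The longest line (-0.53 to 0.32, deacetylases) is that of Kat6a-/-Tg(Kat6b) versus Kat6a+/+Tg(Kat6b), a comparison that includes the library with low counts of long genes.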

How the data were processed

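Reads from non-stranded TruSeq libraries were aligned to mm39 with Rsubread and counted with featureCounts by the authors. The deposited files hold whole-number counts per gene with a gene length. The annotation release and the handling of reads shared by paralogues are not given in the sources used here. Genes and lists were chosen with earlier results of these data known, and all 10 genes are named in every comparison. Of the wider lists, called genes are named (at most 5 per list and comparison), as are the 3 genes most like Kat6a or Kat6b, of which 1 is not reported here. Counts of 16 embryos were filtered (filterByExpr), scaled by TMM and tested in edgeR 4.0.16 (robust quasi-likelihood) with 2 surrogate variables (sva 3.50.0), a number the authors' methods do not give. FDR is the Benjamini-Hochberg adjusted p over 15679 genes, and CPM and RPKM were computed from the counts. Replicates are separate embryos, and no library pair within a genotype agreed within sampling noise. Chi-square per degree of freedom was at least 1.83, the value of Kat6a-/-Tg(Kat6b) replicates 2 and 4. Pairs across genotypes were not compared. Positions are from GENCODE on GRCm39, where exon numbers of the null allele were taken to follow the canonical transcript. Library sizes, filters, surrogate variables, sex, litter, replicate number, DESeq2 1.42.0 and limma 3.58.1 were alternatives, and scripts were tested on simulated data.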

Additional observations from a re-analysis of the deposited data

Results flagged for a closer look

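Of 40 groups of 4 embryos (10 genes in 4 genotypes), 3 held an embryo far from the other 3, where chance alone gives about 1 in 20, or 2 of 40. All 3 were in Kat6a+/+Tg(Kat6b) embryos. Kat6a was at 138 CPM in replicate 1, against 189 to 196 CPM in the others. Kat7 was at 131 CPM in replicate 4, against 139 to 141 CPM. Kat8 was at 31.5 CPM in replicate 2, against 27.0 to 27.6 CPM. For none of the 10 genes was a transgene effect shown to differ between Kat6a+/+ and Kat6a-/- embryos by the edgeR interaction test. The widest interval, that of Kat6a, spanned folds from 0.956 to 1.36.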

How the results depend on the processing

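Kat6b was called with every alternative in each comparison that includes the transgene contrast. The number of the 10 genes called in Kat6a-/-Tg(Kat6b) versus Kat6a-/-Kat6b+/+ embryos went from 2 to 1, by the loss of Ing5, with no surrogate variable, 1 surrogate variable, at least 10 counts in every embryo, sex in place of surrogate variables or an FDR of 0.01, and ranged from 1 to 2 when single embryos were left out. Averaged over excess Kat6b, the number fell from 2 to 1 with no surrogate variable or an FDR of 0.01. The replicate numbers do not pair embryos (correlations of -0.26 to 0.22, 10 of 24 above 0.1), and with replicate number as a block the first count was 1 (Ing5 FDR = 0.0588). Fold changes of Kat6b and Ing5 kept their direction wherever called, and 122 values that were not called changed sign. A litter effect could not be fitted for the Kat6a-/-Tg(Kat6b) embryos.

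Alternatives chosen after seeing the data concerned the 85 genes of the wider lists. With offsets for gene length 2 (2.35%, against 0.242% of all genes) were called in Kat6a+/+Tg(Kat6b) versus Kat6a+/+Kat6b+/+, 2 (2.35% against 1.6%) in Kat6a-/-Tg(Kat6b) versus Kat6a+/+Tg(Kat6b) and 12 (14.1% against 7.9%) on average over excess Kat6b. Without Kat6a+/+Tg(Kat6b) replicate 1 the counts were 10 (11.8% against 10.6%) in Kat6a-/-Tg(Kat6b) versus Kat6a-/-Kat6b+/+, 1 (1.18% against 1.04%) in Kat6a-/-Tg(Kat6b) versus Kat6a+/+Tg(Kat6b), 3 (3.53% against 3.48%) on average over loss of KAT6A and 8 (9.41% against 7.21%) over excess Kat6b. The causes were not tested.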
